A study of Homo sapiens with 4 samples.

Results

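The Krüppel-like factor (KLF) genes encode transcription factors that bind GC-rich and CACCC-containing DNA through zinc fingers at the carboxyl end of the protein. Members were taken by gene symbol, and all 10 listed genes, KLF3, KLF4, KLF5, KLF6, KLF7, KLF9, KLF10, KLF11, KLF13 and KLF16, had a row among the 56655 genes of the count tables. RNA was sequenced from OVCAR5, an established human ovarian cancer cell line labelled as high grade serous and derived from ascites. The cells had been stably transduced with lentivirus and selected with puromycin, carrying either a nontargeting hairpin in pLKO.1 (shCtrl, 2 libraries) or a hairpin against the forkhead factor FOXK2 (shFOXK2, 2 libraries). Each group was described as biological duplicates, so any property of the transduced cell populations other than the hairpin cannot be told apart from the hairpin. The study named KLF9 as a known FOXK2 target, among genes with FOXK2 binding sites by ChIP-seq and lower RNA in its shFOXK2 cells. That RNA result came from the same comparison of cells as the counts read here, so the KLF9 values below are not independent of it. The comparison of the groups asks which KLF transcripts differ when FOXK2 is targeted.

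KLF proteins fall into classes by the partners that their amino-terminal parts bind. KLF3, KLF8 and KLF12 bind the corepressor CtBP and mostly repress transcription. KLF4, KLF5, KLF6 and KLF7, with KLF1 and KLF2, carry activation domains and recruit acetyltransferases such as p300, although KLF4 can also repress. KLF9, KLF10, KLF11, KLF13, KLF14 and KLF16 bind the corepressor SIN3A and can repress genes with GC-rich promoters. Several KLF genes answer quickly to outside signals: KLF2, KLF4, KLF6 and KLF10 behave as early response genes, KLF10 and KLF11 are induced by TGF-beta, and KLF9 is induced by glucocorticoid and thyroid hormones.

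The 4 libraries held 14284005 to 21950873 counts, and levels are given as CPM (counts scaled to a common library total), with library sizes adjusted by TMM (trimmed mean of M values). A floor of 3 counts corresponded to 0.135 to 0.211 CPM. FOXK2, the targeted gene, was counted 1796 and 1499 times in the control libraries and 1086 and 1084 times in shFOXK2. At 86.9 ± 9.10 CPM against 67.95 ± 11.9 (SD over 2 libraries), its log2 difference of -0.36 (SE 0.25) was not distinguished from the spread between libraries (edgeR adjusted p = 0.257), although both shFOXK2 libraries lay under both controls. With adjustment for the GC or A content of transcripts the difference was -0.058 or -0.024. Those adjustments moved log2 fold changes in general, with a median shift over genes of 0.18 for GC and 0.26 for A content. A lower FOXK2 transcript level in the libraries labelled shFOXK2 was thus not established by these counts. Outside these libraries, the study reported lower FOXK2 mRNA by qRT-PCR and lower protein by Western blot in shFOXK2 OVCAR5 cells. The FOXK2 paralog FOXK1 fell, with 207 and 204 CPM in controls and 96.0 and 88.1 in shFOXK2, by 1.16 on the log2 scale (SE 0.23, adjusted p = 0.00111). All 7 epithelial markers examined were detected, with a summed level of 3839 and 5091 CPM in shCtrl and 3595 and 4762 in shFOXK2. Of these, CDH1 and CLDN4 fell, with log2 fold changes of -4.02 and -1.02, 6 of the 7 had a log2 fold change below 0, and the keratins KRT8, KRT18 and KRT19, which did not pass, made up most of the sum. The summed level of 6 ovarian markers was 37.0 and 33.3 CPM in shCtrl and 18.9 and 16.1 in shFOXK2. Among them PAX8 fell by 0.88 and MUC16 fell from 397 and 145 counts to 0 and 8, MSLN rose with a log2 fold change of 1.10 (adjusted p = 0.0151), and WT1, SOX17 and ESR1 had 3 or fewer counts in every library. The summed level of 6 gastrointestinal markers was 11.4 and 14.3 CPM against 11.1 and 9.06, with CDX2 at 125 to 230 counts and CDX1 and TFF3 at 3 or fewer. Of the 3 that were tested 1 rose and 0 fell. The scarce LGALS4 went from 3 and 1 counts in shCtrl to 15 and 16 in shFOXK2 (edgeR adjusted p = 0.00143). Of 5 endothelial markers the summed level was 10.6 and 7.72 CPM in shCtrl and 0.703 and 2.03 in shFOXK2, with TEK and KDR at 1 or 0 counts. The summed level of 7 fibroblast markers was 20.5 and 18.9 CPM against 16.9 and 13.9, with COL1A2, COL3A1 and DCN at 3 or fewer counts. Of the 2 that were tested, PDGFRB fell from 127 and 87 counts to 2 and 8 (edgeR adjusted p = 3.32e-05). COL1A1 did not pass (log2 fold change 0.026), and THY1 had 0 counts in each shCtrl library and 6 in each shFOXK2 library. The summed level of 6 leukocyte markers was 0.498 to 1.03 CPM in shCtrl and 0.769 to 1.27 in shFOXK2, with PTPRC, CD3E and CD68 at 3 or fewer counts. Mitochondrial transcripts made up 7.79% ± 1.53 and 9.09% ± 0.694 of all counts in shCtrl and shFOXK2, and the nuclear noncoding RNA MALAT1 made up 0.0333% ± 0.0133 and 1.11% ± 0.118 (SD, n = 2). The part of these differences in the results for KLF genes was not tested.

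Of the 10 listed members, KLF9, KLF11 and KLF13 fell in shFOXK2, by 2.42, 1.78 and 1.29 on the log2 scale, and the other 7 did not pass the test. All 10 members passed the filter on low counts, and 3 of 10 had an adjusted p under 0.05 by edgeR's quasi-likelihood test, where 48.4% of all 16417 tested genes did. By direction, 3 of 10 members were lower, against 22.7% of tested genes, and 0 of 10 were higher, against 25.7%. The count of 0 held at an unadjusted p under 0.05 and by DESeq2, whereas KLF4 and KLF6 passed as higher after adjustment for the A content of transcripts. In 4 of 10 members (KLF5, KLF9, KLF11 and KLF13) the shFOXK2 libraries were both lower than either control, against 36.2% of tested genes. In 1 of 10, KLF6, both were higher than either control, against 39.2%. The median log2 fold change of the members was -0.27, and that of all tested genes was 0.042. With 2 libraries in each group an exact permutation of labels cannot give a p below 0.333, so the p-values rest on the variance that edgeR shares between genes.

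**Figure D1:**
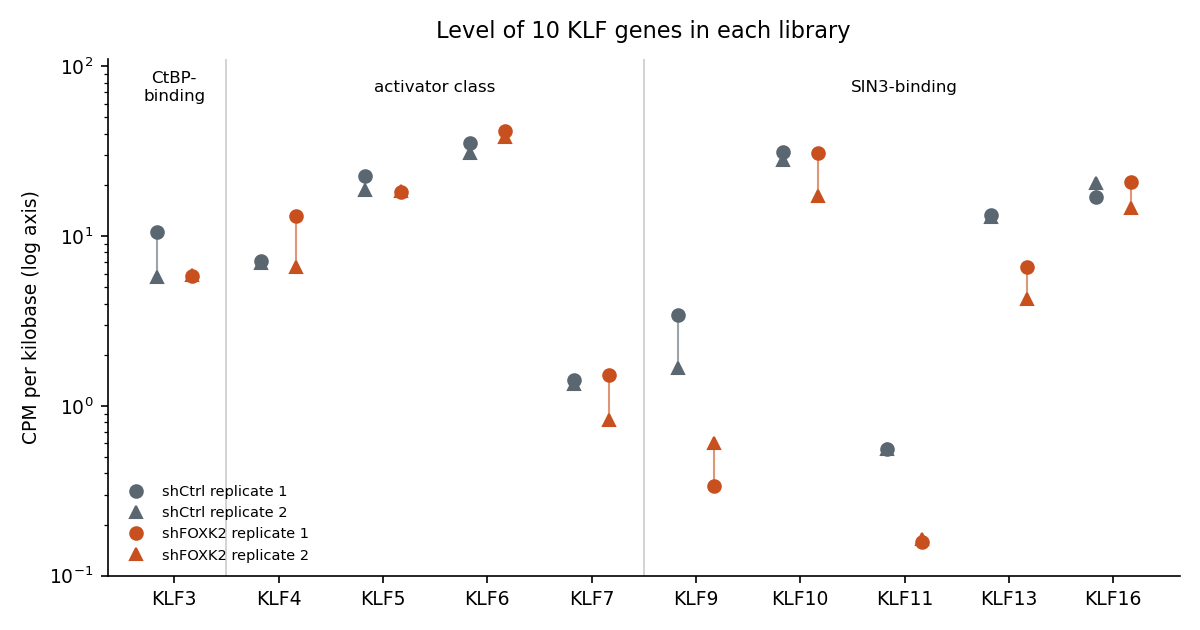
Level of each KLF gene in the 4 libraries, as CPM per kilobase of canonical transcript on a log axis. Grey marks are shCtrl and orange marks shFOXK2, circles are replicate 1 and triangles replicate 2, and thin lines join the libraries of a group. KLF9, KLF11 and KLF13 show a gap between the groups, whereas KLF4, KLF7, KLF10 and KLF16 show shFOXK2 libraries that lie apart from each other.

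KLF9 (ENSG00000119138.5) is a repressor of the SIN3-binding class that is induced by glucocorticoid and thyroid hormones. The gene has 2 exons and occupies chromosome 9 of hg38 between 70384604 and 70414657, minus strand. It was counted 396 and 140 times in shCtrl but 25 and 57 times in shFOXK2, which is 17.8 and 8.72 CPM against 1.76 and 3.13. The groups did not overlap, although libraries of the same group stood apart: the first shCtrl library was 2.04-fold the second, and the first shFOXK2 library was 0.561 times the second. KLF9 fell to 18.6% of control, which is -2.42 on the log2 scale (SE 0.42, 95% interval -3.33 to -1.52, edgeR adjusted p = 0.000446). Between single pairs of libraries the log2 difference ran from -3.34 to -1.48. Without the first shCtrl library the log2 fold change was -1.86, and without the second shFOXK2 library it was -2.94, each with an adjusted p under 0.05. A fall of transcript per cell and a fall in the share of cells with the transcript cannot be told apart in these bulk samples.

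KLF13 (ENSG00000169926.11), a repressor and activator known from T cells and heart, lies on chromosome 15 from 31326835 to 31435665 on the plus strand, in 2 exons. Controls held 2042 and 1420 KLF13 counts, and shFOXK2 libraries 636 and 528. The corresponding levels were 91.5 and 88.5 CPM against 44.7 and 29.0, so that the shCtrl libraries were close to each other and both shFOXK2 libraries lay well below them. The log2 fold change was -1.29 (SE 0.27, 95% interval -1.88 to -0.70, edgeR adjusted p = 0.00169). Before the change KLF13 was the most abundant by CPM of the 3 genes that fell. The UBE2CP4 pseudogene overlaps KLF13 and shares 0 exon bases with it.

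KLF11 (ENSG00000172059.11), a TGF-beta-inducible repressor also known as TIEG2, lies on chromosome 2 from 10042849 to 10054836 on the plus strand, and its canonical transcript has 4 exons. It was the scarcest member, at 50 and 36 counts in controls against 9 and 12 in shFOXK2. Its levels were 2.24 and 2.24 CPM against 0.633 and 0.659, nearly the same within each group. The log2 fold change was -1.78 (SE 0.43, 95% interval -2.71 to -0.85, edgeR adjusted p = 0.00423). An unnamed long noncoding gene on the opposite strand shares 416 exon bases with KLF11, and since the strand setting of the counting was not stated its reads cannot be separated.

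The promoters of these genes were read to show what lies before their starts, together with that of KLF16, a SIN3-binding member that did not pass the test. RefSeq windows of 300 bases (250 before and 50 after an annotated start, GRCh38.p14) were found for 8 of the 10 members, in 13 windows. Searches for 4 sets of letters were made on both strands: TGTTTAC, the forkhead motif that the study named, its shorter core TGTTTA, which every TGTTTAC also holds, the GT-box GGGTGGG and the GC-box GGGCGGG. The 250 bases before each start are given 5′ to 3′ on the strand of the gene, and capitals mark a match of any of these on either strand.
KLF9, chr9:70414658-70414907, minus strand: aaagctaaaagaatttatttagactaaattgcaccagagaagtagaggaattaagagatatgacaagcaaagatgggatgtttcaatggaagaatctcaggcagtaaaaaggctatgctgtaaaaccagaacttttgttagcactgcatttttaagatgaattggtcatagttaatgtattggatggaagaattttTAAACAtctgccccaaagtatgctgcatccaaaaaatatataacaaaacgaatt
KLF11, chr2:10043971-10044220, plus strand: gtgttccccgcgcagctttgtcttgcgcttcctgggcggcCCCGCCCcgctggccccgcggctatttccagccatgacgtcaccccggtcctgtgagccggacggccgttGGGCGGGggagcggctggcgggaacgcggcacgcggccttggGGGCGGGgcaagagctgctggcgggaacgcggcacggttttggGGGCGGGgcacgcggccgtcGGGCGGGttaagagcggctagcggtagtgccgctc
KLF13, chr15:31326585-31326834, plus strand: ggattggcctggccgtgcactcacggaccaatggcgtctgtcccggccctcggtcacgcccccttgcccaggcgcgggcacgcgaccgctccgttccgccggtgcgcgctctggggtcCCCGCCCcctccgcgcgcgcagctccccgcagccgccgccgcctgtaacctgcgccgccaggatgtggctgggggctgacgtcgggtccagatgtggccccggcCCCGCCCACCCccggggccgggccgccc
KLF16, chr19:1863580-1863829, minus strand: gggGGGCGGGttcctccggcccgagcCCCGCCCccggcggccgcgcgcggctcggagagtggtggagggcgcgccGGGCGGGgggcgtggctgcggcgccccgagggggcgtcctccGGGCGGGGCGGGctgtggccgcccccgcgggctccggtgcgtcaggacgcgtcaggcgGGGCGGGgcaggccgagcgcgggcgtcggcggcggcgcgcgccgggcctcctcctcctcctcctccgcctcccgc

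The bases shown held 32.4% G and C for KLF9, against 74.4% for KLF11, 78.8% for KLF13 and 86.4% for KLF16. A low share was not particular to KLF9. Among the windows not shown, KLF5 had a start at 40.8% and KLF7 had starts at 41.6% and 43.2%. The other starts of KLF5 and KLF7 lay at 58.0% to 72.0%, and the other start of KLF11 at 78.8%. KLF9 was the sole member of the 8 whose window held TGTTTA, with a match beginning 54 bases before the start on the opposite strand, shown in capitals, and another at position 13 of the transcript. Of the 13 windows of members 1 held TGTTTA, against 12.3% of all 35116 windows, and 0 held the longer TGTTTAC, against 3.4%. The GC-box was in 8 of the 13 windows, against 33.1% of all windows, and by gene in 7 of the 8 members, KLF9 being the exception, against 36.7% of 27305 genes. The GT-box was in 2 of the 13 windows, of KLF7 and KLF13, against 19.6%. KLF5, KLF7 and KLF11 have more than 1 annotated start, and neither window of KLF11 starts at the first base of its canonical transcript. These are matches of letters near annotated starts, and distal elements and FOXK2 occupancy were not analysed here.

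KLF16 (ENSG00000129911.9), on chromosome 19 from 1852399 to 1863579 on the minus strand, was counted 1104 and 950 times in controls and 853 and 770 times in shFOXK2. An opposite-strand noncoding gene shares 483 of its exon bases. Its levels were 49.5 and 59.2 CPM against 59.97 and 42.3, so the shFOXK2 libraries enclosed both controls. The log2 fold change was -0.088 (SE 0.27, 95% interval -0.66 to 0.48, adjusted p = 0.809). KLF10 (ENSG00000155090.15), the TGF-beta-inducible early gene also known as TIEG1, lies on chromosome 8 from 102648784 to 102655725 on the minus strand. It was counted 2017 and 1309 times in controls and 1285 and 909 times in shFOXK2, or 90.4 and 81.5 CPM against 90.3 and 49.9. Only the second shFOXK2 library was below the controls by a clear margin, and the log2 fold change of -0.30 (SE 0.29, 95% interval -0.92 to 0.33) did not pass the test (adjusted p = 0.421). KLF11 and KLF10, both induced by TGF-beta, gave different outcomes of the test, and the difference between them was not tested. Of the 5 SIN3-binding members 3 fell, beside 22.7% of all tested genes, with a median log2 fold change of -1.29. The classes were set after the values were seen, so this count is a description alone.

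The activator class held 4 members, and 0 of them passed the test in either direction by edgeR, against 48.4% of all tested genes. The count was also 0 at an unadjusted p under 0.05 and by DESeq2, whereas KLF4 and KLF6 passed as higher after adjustment for A content. This class, too, was set after the values were seen, so its count is a description alone. KLF6 (ENSG00000067082.15, chromosome 10, 3775996 to 3785281, minus strand), a growth suppressor in several tumours, was the most abundant member. It was counted 3617 and 2261 times in controls and 2724 and 3177 times in shFOXK2, and its levels were 162 and 141 CPM against 192 and 174. Both shFOXK2 libraries lay above both controls by a small margin, with a log2 fold change of 0.27 (SE 0.23, 95% interval -0.22 to 0.77, adjusted p = 0.345). KLF4 (ENSG00000136826.15, chromosome 9, 107484852 to 107490482, minus strand), an epithelial differentiation factor that is also used to reprogram cells to pluripotency, was counted 464 and 327 times in controls and 545 and 350 times in shFOXK2. A noncoding gene on the opposite strand shares 357 of its exon bases. Its levels were 20.8 and 20.4 CPM against 38.3 and 19.2, so the first shFOXK2 library was high and the second was at the level of the controls. The log2 fold change was 0.48 (SE 0.32, 95% interval -0.21 to 1.17, adjusted p = 0.236), and it was -0.12 without the first shFOXK2 library and 0.86 without the second.

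KLF5 (ENSG00000102554.14, chromosome 13, 73054976 to 73077541, plus strand), a factor of proliferating epithelium, was counted 1679 and 1003 times in controls and 863 and 1123 times in shFOXK2. At 75.3 and 62.5 CPM against 60.7 and 61.7, its libraries separated by less than the gap between the controls, with a log2 fold change of -0.17 (SE 0.24, 95% interval -0.70 to 0.36, adjusted p = 0.591). KLF7 (ENSG00000118263.16, chromosome 2, 207074137 to 207173856, minus strand), a factor of neuronal development, was counted 264 and 181 times in controls and 181 and 126 times in shFOXK2. Its levels of 11.8 and 11.3 CPM lay between the 12.7 and 6.92 CPM of the shFOXK2 libraries (log2 fold change -0.24, SE 0.34, 95% interval -0.97 to 0.49, adjusted p = 0.584). The noncoding gene MYOSLID shares 67 exon bases with KLF7 on the opposite strand.

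KLF3 (ENSG00000109787.13, chromosome 4, 38664197 to 38701517, plus strand), the CtBP-binding repressor among the members, was counted 1311 and 514 times in controls and 460 and 603 times in shFOXK2. Its levels were 58.8 and 32.0 CPM in shCtrl and 32.3 and 33.1 in shFOXK2. The first shCtrl library alone was high, and the second was slightly below both shFOXK2 libraries. The log2 fold change was -0.47 (SE 0.30, 95% interval -1.12 to 0.17, adjusted p = 0.209). It was -0.0035 without the first shCtrl library and -0.92 without the second, so 1 library decided its size. KLF3-AS1, on the opposite strand with 265 shared exon bases, had 4 to 16 counts, and the pseudogene KLF3P1 had 1 to 12.

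The spread between libraries differed from member to member. In shCtrl, KLF3 and KLF9 differed between the libraries by more than 1.3-fold and the other 8 members did not. In shFOXK2, 6 members did: KLF4, KLF7, KLF10, KLF13 and KLF16 were higher in the first library, by 1.42-fold for KLF16 to 1.99-fold for KLF4, and KLF9 was higher in the second. KLF3, KLF5, KLF6 and KLF11 differed between the shFOXK2 libraries by 1.10-fold at most. The summed level of the 10 members was 580 and 507 CPM in shCtrl and 533 and 420.5 in shFOXK2, and these ranges overlapped.

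Levels can be compared between genes per length of transcript. In shCtrl, KLF6 was highest at 33.0 CPM per kilobase, followed by KLF10 at 29.5, KLF5 at 20.6, KLF16 at 18.7, KLF13 at 13.1, KLF3 at 8.11, KLF4 at 7.01, KLF9 at 2.54, KLF7 at 1.38 and KLF11 at 0.556 (means, n = 2). In that order the libraries of KLF6 and KLF10 overlapped, as did those of KLF5 and KLF16 and those of KLF3 and KLF4, and the other neighbours did not. In shFOXK2, KLF6 was again highest at 39.9 CPM per kilobase and KLF11 lowest at 0.160. KLF13, at 5.38 CPM per kilobase, then stood behind KLF4 at 9.80 and had a range that overlapped that of KLF3 at 5.85. KLF9, at 0.470, then stood behind KLF7 at 1.17. KLF10, KLF5 and KLF16, at 24.1, 18.3 and 17.6, overlapped with each other in shFOXK2, but not with KLF6 above them or KLF4 below them. Of the summed level per length of the 10 members, KLF6 made up 24.8% and 24.2% in shCtrl and 30.0% and 35.7% in shFOXK2. KLF13 made up 9.40% and 10.2% in shCtrl and 4.70% and 3.98% in shFOXK2, and KLF9 2.40% and 1.32% against 0.243% and 0.566%.

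**Figure D2:**
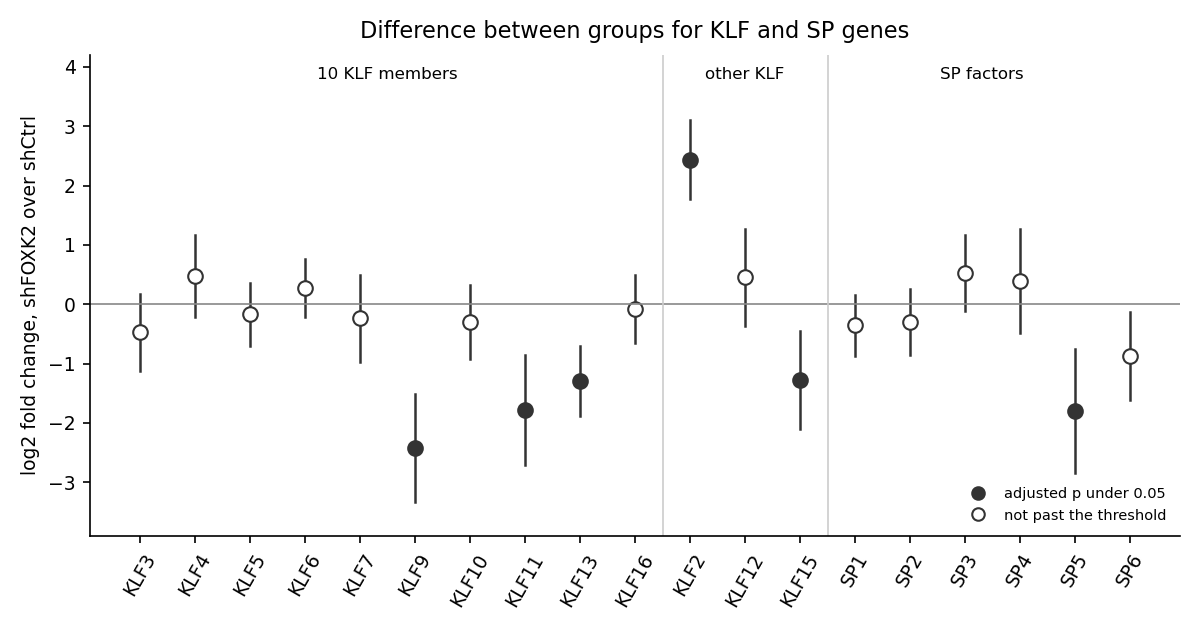
Log2 fold change of shFOXK2 over shCtrl for the 10 members, the 3 other KLF genes and the 6 SP genes that were tested. Points are edgeR estimates, lines are 95% intervals, and filled points have an adjusted p under 0.05. KLF9, KLF11, KLF13, KLF15 and SP5 lie below 0, and KLF2 lies above 0 at 2.44.

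The 8 KLF genes outside the listed members were read from the same fit. KLF2, an activator known for its role in quiescent endothelium and T cells, rose: it was counted 134 and 138 times in controls and 654 and 599 times in shFOXK2, or 6.01 and 8.60 CPM against 46.0 and 32.9. Its log2 fold change was 2.44 (SE 0.31, edgeR adjusted p = 5.11e-05), and its pseudogenes KLF2P1 to KLF2P4 had 0 counts. The endothelial markers PECAM1 and CDH5 fell in the same libraries, PECAM1 to 0.633 and 1.59 CPM and CDH5 to 0 counts in each. KLF15, a metabolic regulator induced by glucocorticoids, was at 4.26 and 4.61 CPM in controls and fell to 2.25 and 1.43, by 1.28 on the log2 scale (SE 0.38, adjusted p = 0.0135). KLF12, a CtBP-binding repressor, had 15.6 and 6.17 CPM in shCtrl and 15.5 and 14.6 in shFOXK2 (log2 fold change 0.45, adjusted p = 0.342), and its fold change was -0.13 without the second shCtrl library and 1.25 without the first, where it was called higher (adjusted p = 0.00640). KLF1, KLF8, KLF14, KLF17 and KLF18 had at most 4 counts in any library and were not tested. For KLF18, with 0 counts in every library, the depth allows up to 0.211 CPM in the shallowest library.

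The SP factors are the nearest relatives of the KLF proteins and bind the same GC-rich elements. Of 9 SP genes 6 were tested, and 1 of the 6 fell, beside 22.7% of all tested genes. It was SP5, which went from 1.39 and 1.68 CPM to 0.492 and 0.385, by -1.80 on the log2 scale (SE 0.48, edgeR adjusted p = 0.00753). SP6, with a log2 fold change of -0.87, missed the threshold (adjusted p = 0.0501). The widely expressed SP1, SP2 and SP3 had log2 fold changes of -0.35, -0.30 and 0.53, with adjusted p-values of 0.242, 0.353 and 0.157, and SP4 had 0.39 (0.451). Of the SP genes 0 rose, beside 25.7% of all tested genes. The count of rises was also 0 at an unadjusted p under 0.05 and by DESeq2, and DESeq2 called 0 of them lower. Without the first shCtrl library, however, SP3 and SP4 were called higher, at 1.02 and 1.3 (adjusted p = 0.00586 and 0.00840). SP2 changed sign under the A content adjustment, SP3 under the GC content adjustment and SP4 under both. SP7, SP8 and SP9 had at most 2 counts.

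Corepressors, acetyltransferases and ubiquitin and SUMO enzymes that act with or on KLF proteins were then counted. Of 17 such genes, 4 rose and 2 fell, with a median log2 fold change of 0.098. Over all tested genes 25.7% rose and 22.7% fell, and the counts in this list and in those that follow are descriptions to be read beside these shares. SIN3A, the corepressor bound by KLF9, KLF10, KLF11, KLF13 and KLF16, fell from 136 and 125 CPM to 75.4 and 77.5 (log2 fold change -0.77, edgeR adjusted p = 0.0144). The deacetylase gene HDAC1 fell by 0.58 on the log2 scale, whereas the deacetylase gene HDAC2 rose by 1.04 (adjusted p = 0.0488 and 0.00425). FBXW7, part of a ubiquitin ligase for KLF5, rose with a log2 fold change of 1.48 (adjusted p = 0.00138). The CtBP genes CTBP1 and CTBP2 had log2 fold changes of 0.082 and 0.035 and did not pass.

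Of 16 genes described as KLF targets 13 were tested, and 2 rose and 5 fell (median log2 fold change -0.49). The largest falls were those of L1CAM, a neural adhesion gene, at -4.08, and of CDH1, which encodes E-cadherin, at -4.02. FGFBP1, a KLF5 target, rose with a log2 fold change of 3.0 and ODC1, of polyamine synthesis, with 1.27 (adjusted p = 0.00608, the highest among these 4). The cell cycle inhibitor CDKN1A, which KLF4 and KLF6 are known to activate, fell from 26.1 and 32.0 CPM to 10.5 and 4.78 (adjusted p = 0.000708), while the levels of KLF4 and KLF6 themselves did not pass the test.

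Genes that share stimuli with the KLF genes gave mixed counts. Of the 18 immediate early genes tested, 4 rose and 7 fell. Among them FOSL1 and FOS, subunits of AP-1, had log2 fold changes of 2.39 and 2.30, and IER3 and JUNB had -2.57 and -1.65. KLF4, KLF6 and KLF10, named with the early response genes above, had log2 fold changes between -0.30 and 0.48. KLF2, named with them, rose with a log2 fold change of 2.44. Of the 13 TGF-beta responsive genes 7 fell and 0 rose, with a median log2 fold change of -0.79. At an unadjusted p under 0.05, 8 were lower and 0 higher, and DESeq2 called 7 lower and 0 higher. LTBP2, which binds microfibrils, fell by 2.72 on the log2 scale. Of the 11 glucocorticoid responsive genes tested 5 fell and 1 rose, with a median of -0.70: NFKBIA and SGK1 had -2.70 and -1.89, and NR3C1, the glucocorticoid receptor itself, had 1.10. Of the 16 clock genes tested 5 fell and 3 rose, with a median of -0.54, led by BHLHE41 and BHLHE40 at -3.05 and -2.94 and by CLOCK and RORA at 2.52 and 1.52. Apart from KLF4, KLF6 and KLF10, which did not pass, the genes given with values here had adjusted p-values of at most 0.0135. SMAD7, DUSP1 and PER1 each stand in a pair of these lists.

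**Figure D3:**
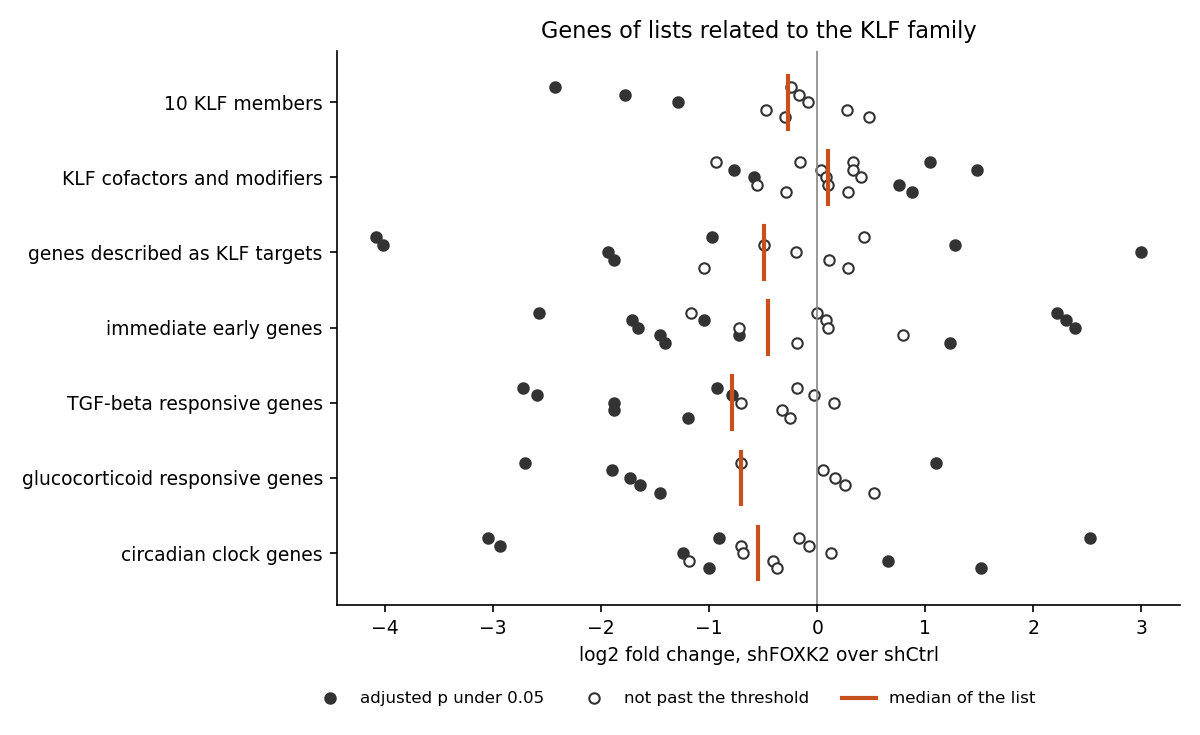
Log2 fold change of shFOXK2 over shCtrl for the tested genes of 7 lists, 1 row for each list. Filled points have an edgeR adjusted p under 0.05, open points do not, and the orange bar is the median of the list. The KLF members have a median of -0.27, the cofactors 0.098 and the TGF-beta responsive genes -0.79.

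The fold changes of the members were followed through other ways of processing the counts. KLF9 kept an adjusted p under 0.05 in all 12 alternatives and in the 4 fits that left out a library, with log2 values between -2.53 and -2.13 in the former and between -2.94 and -1.86 in the latter. KLF13 passed in 11 of 12 and KLF11 in 10 of 11, the exception for each being glmTreat, which asks whether the change exceeds 1 on the log2 scale. The transcripts of KLF9, KLF11 and KLF13 are 26.8%, 24.6% and 20.6% A. Adjustment for A content gave a median shift of 0.26 on the log2 scale over the 14402 genes of that fit. It left KLF9, KLF11 and KLF13 at -2.19, -1.44 and -0.96, with edgeR adjusted p-values of 0.00336, 0.0138 and 0.00661. Under that adjustment KLF3 passed as lower (-0.61, adjusted p = 0.0366), and KLF4 and KLF6 passed as higher (0.80 and 0.51, adjusted p = 0.0476 and 0.0314). Called members thus numbered 6 in place of 3, beside 7155 called among all 14402 genes of that fit.

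**Figure D4:**
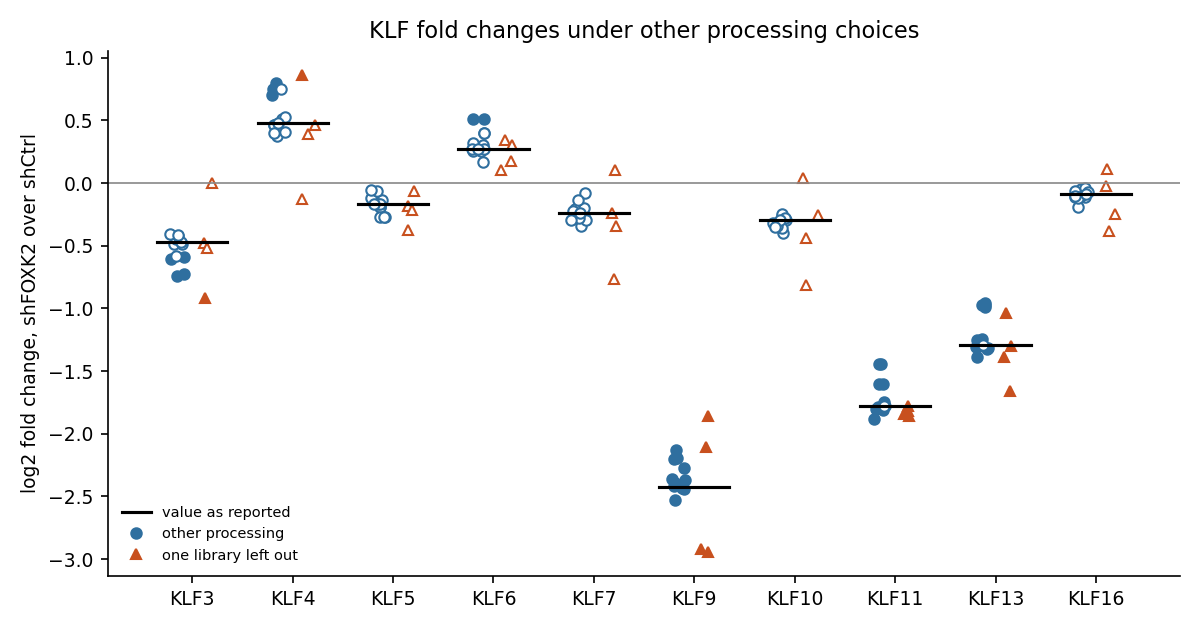
Log2 fold change of each member under other processing choices. Black bars are the values reported, blue circles other scalings, filters, tests and adjustments, orange triangles fits without 1 library, and filled marks have an adjusted p under 0.05. KLF9 lies at -1.86 or lower throughout, and KLF4, KLF7, KLF10 and KLF16 change sign when 1 shFOXK2 library is left out.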

How the data were processed

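The authors sequenced polyadenylated RNA (single-end, Illumina), aligned reads to hg38 with STAR 2.5.2 and counted them per gene with HTSeq. The deposited values are raw counts per gene symbol, 1 table per library, without normalization. The annotation and the strand setting of the counting are not given in the sources used here. Titles of the samples gave group and replicate number.

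After filterByExpr and TMM scaling, groups were compared by 2-sided quasi-likelihood F tests (edgeR 4.0.16, R 4.3.3) with Benjamini-Hochberg adjustment over the 16417 tested genes. Each SE was taken as the size of the log2 change over the root of its F value. CPM and CPM per kilobase use TMM-scaled library sizes, and lengths are those of canonical transcripts in GENCODE v44, to which 65.1% of symbols were matched. The alternatives were DESeq2 1.42.0, other scalings and filters, lowess offsets on GC or A content (span 0.2, genes with a composition value), glmTreat, the replicate number as a block and leaving out each library. Scripts were tested on simulated counts. Deviations of same-numbered libraries from their group means correlated at -0.14 across genes.

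The members and the gene lists were chosen with earlier results of these data known, and the classes of KLF proteins were added after the values were seen. Besides the members, named genes are FOXK2, FOXK1, the other KLF and SP genes, and from each list the 2 largest rises and 2 largest falls with an adjusted p under 0.05 and a mean log2 CPM of at least 1. CTBP1, CTBP2, CDKN1A, MALAT1, SMAD7, DUSP1, PER1 and the marker genes were named outside that rule. Single-gene values of 1 gene that the rule picks and of 1 marker are not reported here. Floors and intervals of counts cover counting error alone, since reads were counted without molecular identifiers.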

Additional observations from a re-analysis of the deposited data

How the results depend on the processing

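Among the settings that kept all libraries, the count of called genes stayed within 1.5 times of 7940 except under glmTreat at a minimum log2 change of 1, where it was 3386 (2056 higher, 1330 lower), since that test asks for a larger change. With the replicate number as a block it was 7270, with 3 KLF members called, and with crossed numbers, a setting chosen after seeing the data, 8350. Added to the reported fit, the block changed no call of a member, but added to the GC offset it brought KLF4 past the threshold and the called members from 4 to 5. The same numbers need not mark a shared origin. The called KLF members numbered 6 with the A content offset, with or without the block, and 5 with the GC content offset and the block, of which 2, 2 and 1 were higher. Among all 14402 genes of these fits, 7155 were called with the A offset, 7413 with the A offset and block and 7555 with the GC offset and block. Under glmTreat 1 member, KLF9, was called, and it was lower. KLF3 became called at -0.743 and -0.727 (GC offset without and with the block) and at -0.61 and -0.59 (A offset likewise). KLF4 became called at 0.70 (GC offset and block), 0.80 (A offset) and 0.75 (A offset and block), and KLF6 at 0.51 and 0.51 with the A offset without and with the block. KLF11 (-1.78) and KLF13 (-1.29) lost their calls under glmTreat, with adjusted p-values of 0.0623 and 0.185. KLF11 has no value with at least 10 counts in every library, where it is filtered out. The causes were not tested, and the GC and A offsets gave median shifts of 0.18 and 0.26 over the 14402 genes of those fits.

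Called SP factors numbered 2 with DESeq2 size factors or no filter and 0 with the DESeq2 test, at least 10 counts in every library or glmTreat, against 1. Called KLF genes outside the members numbered 1 with the A offset and block or glmTreat, against 2. Under glmTreat the cofactors had 0 calls, the immediate early genes 5, the TGF-beta genes 4 and the clock genes 3. SP2 reversed to 0.051 and 0.052 with the A offset without and with the block, SP3 to -0.15 and -0.15 with the GC offset likewise, and SP4 to -0.17 and -0.10 with the GC offset likewise and to -0.056 with the A offset.

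When each library was left out in turn, the lone library of a group was assumed to vary like those of the other group. Calls in these fits rest on that assumption and are not counted here. Without a library the log2 fold change ranged from -0.92 to -0.0035 for KLF3 (called without the second shCtrl library), from -0.12 to 0.86 for KLF4 (called without the second shFOXK2 library), from -0.76 to 0.11 for KLF7, from -0.81 to 0.040 for KLF10 and from -0.39 to 0.11 for KLF16. That of KLF12 ranged from -0.13 to 1.25 and that of SP4 from -0.24 to 1.3, each lowest without the second shCtrl library and called higher without the first. Called SP factors numbered 0 to 3 (3 without the first shCtrl library, SP3 and SP4 being higher), cofactors 3 to 6 and clock genes 5 to 9.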
